A study of Homo sapiens with 18 samples.

Results

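The replication-dependent histone genes are the copies of the H1, H2A, H2B, H3 and H4 genes whose messages serve the packaging of newly made DNA. They were taken as the rows of the deposited RNA-seq table whose symbol starts with HIST1H, HIST2H, HIST3H or HIST4H and that held at least 10 counts in 3 or more of the 18 libraries. Of 26475 genes in the table, 73 had such a symbol and 41 met the count rule: 3 of class H1, 11 of H2A, 10 of H2B, 8 of H3 and 9 of H4. In the GENCODE annotation, 28 of them lie on chromosome 6 and 13 on chromosome 1, and HIST2H2BC is a pseudogene by its current record. The other 32 rows stayed below the rule. Just inside it were HIST1H2AB, HIST1H2BJ and HIST1H4I, each with 10 counts in 3 libraries and at most 13, 13.1 and 20 counts. Just outside it were HIST1H2BB, HIST1H2BF and HIST1H3A, each with 10 counts in 2 libraries and at most 12, 28 and 10 counts.

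Core histones H2A, H2B, H3 and H4 form the nucleosome, and the linker histone H1 binds the DNA between nucleosomes. In dividing cells their genes are transcribed mainly in S phase, under the coactivator NPAT. Their messages mostly end in a short stem-loop in place of a poly(A) tail, and that stem-loop is bound by SLBP, which takes part in the processing and translation of the message. Many of these genes can also give longer, polyadenylated messages that run past the stem-loop, and these are known from cells that have stopped dividing. A protocol that selects poly(A) therefore takes up the main form of these messages poorly.

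Mel92.1 and MP41 are human uveal melanoma lines, and the study asked what changes in them when EHMT2 (G9a), a methyltransferase for lysine 9 of histone H3, is inhibited. Each line was kept for 48 h with the vehicle DMSO or with 1 μM of UNC0642 or A366, which both inhibit EHMT2 and EHMT1, and each of the 6 groups has 3 libraries. The submitters call the replicates biological, and each line is a single established culture. The sources disagree on the RNA that was sequenced: the extraction protocol and the study's methods describe oligo-dT selection, and the series text describes depletion of ribosomal RNA with random priming. In bulk RNA, fewer cells that express a gene and less of its RNA per cell cannot be told apart.

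In 4 libraries the RNA went against the labelled line. A check used 20 genes at 20 CPM (counts per 1000000, with library sizes scaled by TMM) or more in all Mel92.1 DMSO libraries and 0.05 CPM or less in all MP41 DMSO libraries, and 21 genes of the reverse pattern. In the libraries labelled A366 replicates 2 and 3 of either line, the genes of the labelled line summed to between 0.0124% and 0.0348% of their DMSO level, and those of the other line to between 95.2% and 121%. The study's own list of changed genes also carries these libraries under the other line. They are placed with that line below, so A366 in MP41 means MP41 A366 replicate 1 with 2 libraries that carry the label Mel92.1 A366 (replicates 2 and 3), and values with the labels as given or without these 4 libraries are given, for a gene or as a count, where the results rest on them. Values of single genes are listed by replicate number, for A366 in MP41 with the 2 libraries of the other label first. The melanocyte genes PMEL (4400 to 11000 CPM), MITF (283 to 649), SOX10 (544 to 760), MLANA (422 to 1090) and TYR (249 to 1750) were present in every library. DCT, also a melanocyte gene, ran from 1.16 to 524 CPM, with a DMSO mean of 1.94 CPM in Mel92.1 and 329 CPM in MP41. Of the markers of other cells, PTPRC of leukocytes and PECAM1 of endothelium did not exceed 0.999 and 0.294 CPM. The collagen gene COL1A1, also such a marker, had 7.25 to 22.2 CPM.

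The depth was 23601200 to 62941500 counts a library (median 41955700), and 3.31% to 32.8% of them fell on 4 ribosomal RNA genes. The library Mel92.1 UNC0642 replicate 1 stood apart. It had the lowest total and the highest ribosomal share, 19 of the 41 histone genes were at 0 in it against 0 to 4 in the other 17 libraries, and 13352 genes had a count against 16300 or more in the others. A value of 3 counts, below which a gene at 0 cannot be told from a present one, was worth 0.0519 to 0.182 CPM. This limit covers counting error only.

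The end of the message is shown first, because it decides how much of a histone message an oligo-dT step can hold. The 16-base stem-loop was found in the GENCODE 29 transcripts of 25 of the 41 genes and of 34 of 23858 other genes of the table (0.143%). The lines give the stem-loop in capitals with 5 bases on either side, for the genes that the results below turn on.

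HIST1H2AC: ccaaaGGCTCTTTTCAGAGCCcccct

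HIST1H2BD: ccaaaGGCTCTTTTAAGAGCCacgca

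HIST3H2A: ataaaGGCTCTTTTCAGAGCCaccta

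HIST1H3E: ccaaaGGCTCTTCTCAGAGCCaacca

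HIST1H4H: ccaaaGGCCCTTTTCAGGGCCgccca

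HIST1H4J: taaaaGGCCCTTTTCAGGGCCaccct

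The form printed for HIST1H2AC occurred in 13 of the 25 genes and the form of HIST1H4H and HIST1H4J in 4. In 18 of the 25 an annotated transcript went on for more than 100 bases past the stem-loop, for example 1128 bases in HIST1H2AC, 390 in HIST3H2A and 1655 in HIST1H4H. Transcripts with the stem-loop ended within 6 bases past it in HIST1H4J and within 39 in HIST1H2BD. The distance was measured only in transcripts that hold the stem-loop, so other forms are not counted. HIST1H2BD has 2 annotated transcripts, the longest of 789 bases, and a poly(A) signal near the end of at least 1 of them. No stem-loop was found in the models of the other 16 genes, among them HIST1H2BK (381 bases) and HIST1H1C (642 bases). The model of HIST1H2BK covers only the coding part of its message, and other short models may also stop before the end of theirs. A missing match in them does not show that the message lacks a stem-loop.

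The promoters are shown as a description of the members, and whether their motifs go with the changes below was not tested. The TATA box (searched as TATAAA), the CCAAT box (as CCAAT) and the octamer bound by POU2F1 (as ATTTGCAT) were looked for on both strands in the 250 bases before the start of each gene in RefSeq (GRCh38.p14), where 38 of the 41 genes had an entry. The TATA letters were in 25 of 38 promoters (65.8%, against 10.7% of 35116 promoters of all genes), the CCAAT letters in 31 (81.6% against 32%) and the octamer in 11 (28.9% against 1.63%). All 30 promoters of class H1, H2A, H2B and H3 and 1 of 8 H4 promoters held the CCAAT letters, and the octamer was in 5 of 9 H2B and 5 of 10 H2A promoters. The last 120 bases before the start of HIST1H2BK (chr6:27146859-27146978, minus strand), HIST1H1C (chr6:26056471-26056590, minus strand) and HIST1H2AC (chr6:26124052-26124171, plus strand) follow, with matches on either strand in capitals. A match is a match of letters and not a measured site. HIST1H2BK holds all 3 motifs in this stretch and HIST1H1C the CCAAT letters alone. Other spellings were not searched, such as the letters tatata in the stretch of HIST1H1C.

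HIST1H2BK: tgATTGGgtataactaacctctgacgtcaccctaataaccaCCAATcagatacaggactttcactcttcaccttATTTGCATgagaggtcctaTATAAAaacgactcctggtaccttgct

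HIST1H1C: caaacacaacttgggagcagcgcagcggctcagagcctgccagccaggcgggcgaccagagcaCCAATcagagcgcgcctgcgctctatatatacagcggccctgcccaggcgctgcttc

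HIST1H2AC: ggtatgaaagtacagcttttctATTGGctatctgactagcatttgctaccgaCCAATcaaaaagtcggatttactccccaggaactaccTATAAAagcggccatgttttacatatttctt

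Histone messages were a small part of every library. The 41 genes together summed to 42.9, 46.5 and 48.3 CPM in the DMSO libraries of Mel92.1 and to 118, 120.0 and 130.0 CPM in those of MP41, which is 2.67 times as much in MP41 and without overlap. The ratio was 1.95 without HIST1H2BK and 1.46 without HIST1H2BK and HIST1H1C, so these 2 genes carried most of the difference. A single H2B gene, HIST1H2BK, held between 44.8% and 56.6% of the set's counts in Mel92.1 and between 58.7% and 67.8% in MP41, a share of reads that is not corrected for length. HIST1H1C, a linker histone, held 5.22% to 9.94% and 11.1% to 16.2%. Over the 18 libraries only these 2 genes averaged 10 CPM or more, 32 of the 41 averaged less than 1 CPM, and 37 stayed under 5 CPM in every library.

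With A366 the MP41 sum was 153, 177 and 187 CPM, above every DMSO and UNC0642 library (111, 116 and 121 CPM with UNC0642). The mean was 1.41 times that with DMSO, and 1.55 times without HIST1H2BK (58, 70.7 and 77.2 CPM against 40.5, 41.4 and 50.8). In Mel92.1 the sums were 42.5, 44.6 and 49.2 CPM with A366, which overlap those with DMSO, and 52.3, 57.4 and 65.8 CPM with UNC0642, above all 3 DMSO libraries. The highest of these is the library that stood apart. With the labels as given, the A366 group of MP41 would hold 44.6, 49.2 and 177 CPM and that of Mel92.1 42.5, 153 and 187 CPM. Within each line, the group with the highest sums also had the highest median share of ribosomal RNA, and why was not tested. In MP41 the share was 3.31% to 5.1% with DMSO, 3.55% to 5.14% with UNC0642 and 5.93% to 11% with A366. In Mel92.1 it was 6.5% to 12.5%, 10.1% to 32.8% and 7.43% to 12.2%. Between the lines with DMSO the order was the other way, with higher sums and a lower share in MP41.

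**Figure D1:**
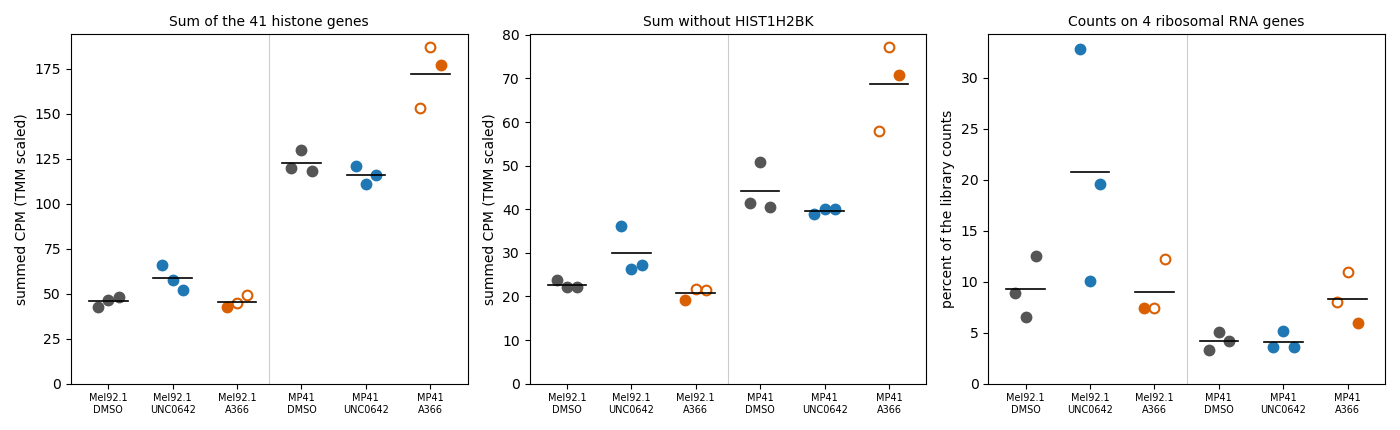
Summed CPM of the 41 histone genes (left), the same without HIST1H2BK (middle) and percent of counts on 4 ribosomal RNA genes (right) in each of 18 libraries, 3 per group, with a bar at the group mean. Open points are the 4 libraries placed with the line that is not on their label, and the 3 MP41 A366 libraries are above every other library in both sums, at 153 to 187 CPM and 58 to 77.2 CPM.

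In MP41, A366 raised 5 histone genes past an adjusted p of 0.05 (edgeR's quasi-likelihood test, Benjamini-Hochberg over 14956 genes): HIST1H1C of class H1, HIST1H2AC and HIST3H2A of class H2A, and HIST1H2BD and HIST1H2BK of class H2B. No histone gene fell. These are 5 of the 33 members that passed the filter on low counts (15.2%), where 46% of all genes tested were past the threshold, 22.5% upward and 23.5% downward, so calls were not more frequent among the histone genes than elsewhere. The median log2 fold change was 0.40 over the 33 (−0.18 over 34 with the labels as given, and −0.03 with an offset fitted to the GC content and the length of the transcripts) and 0.02 over all genes. The 3 A366 libraries were above the 3 DMSO libraries without overlap in 13 of the 33 and below in 1, against 31.4% and 26.7% of all genes.

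HIST1H1C, a gene for linker histone H1.2, had 15.3, 18.6 and 13.2 CPM with DMSO in MP41 and 23.1, 30.3 and 27 CPM with A366. All A366 libraries were above all DMSO libraries, and the log2 fold change was 0.75 (SE 0.14, adjusted p = 0.0015). HIST1H2BK had 78.3, 79 and 77.8 CPM with DMSO, and 94.7, 110.0 and 107 CPM with A366. Its rise was the smallest of the 5 and the most precise, with a log2 fold change of 0.38 (SE 0.075, adjusted p = 0.00191), but with the GC and length offset it was −0.35 (adjusted p = 0.029). HIST1H2AC had 3.92, 4.3 and 3.15 CPM with DMSO and 6.06, 8.36 and 6.89 CPM with A366, a log2 fold change of 0.88 (SE 0.20, adjusted p = 0.00374). These 3 genes kept their calls when any 1 library was left out, and with the GC and length offset HIST1H1C lost its call (0.16, adjusted p = 0.189). With the labels as given they had log2 fold changes of −0.52, −0.59 and −0.41 (adjusted p = 0.614, 0.379 and 0.68), and without the 4 libraries, which leaves MP41 A366 replicate 1 alone, 0.74, 0.40 and 0.82 (adjusted p = 0.00478, 0.00189 and 0.0337).

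HIST3H2A, an H2A gene of the small cluster on chromosome 1, had 1.99, 2.39 and 2.3 CPM with DMSO and 3.34, 4.03 and 4.08 CPM with A366. Its log2 fold change was 0.75 (SE 0.22, adjusted p = 0.0137), and the adjusted p was 0.0538 without MP41 DMSO replicate 1, 0.0571 without MP41 A366 replicate 1 and 0.0634 without the 4 libraries. HIST1H2BD had 2.23, 2.93 and 2.39 CPM with DMSO and 3.4, 3.9 and 4.15 CPM with A366, a log2 fold change of 0.58 (SE 0.20, adjusted p = 0.0342). It was past the threshold only narrowly: its adjusted p was 0.112 without MP41 DMSO replicate 1, 0.0967 without replicate 3, 0.124 without MP41 A366 replicate 1, 0.0919 without the library labelled Mel92.1 A366 replicate 3 and 0.111 without the 4 libraries. Of the other classes, HIST1H3E, the most abundant H3 gene, had 0.606, 1.11 and 1.09 CPM with DMSO and 1.35, 1.44 and 0.969 CPM with A366, and these groups overlapped (log2 fold change 0.40, adjusted p = 0.351). HIST1H4H had 1.23, 1.65 and 0.369 CPM with DMSO and 2.54, 2.82 and 2.3 CPM with A366, with an adjusted p of 0.0533.

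**Figure D2:**
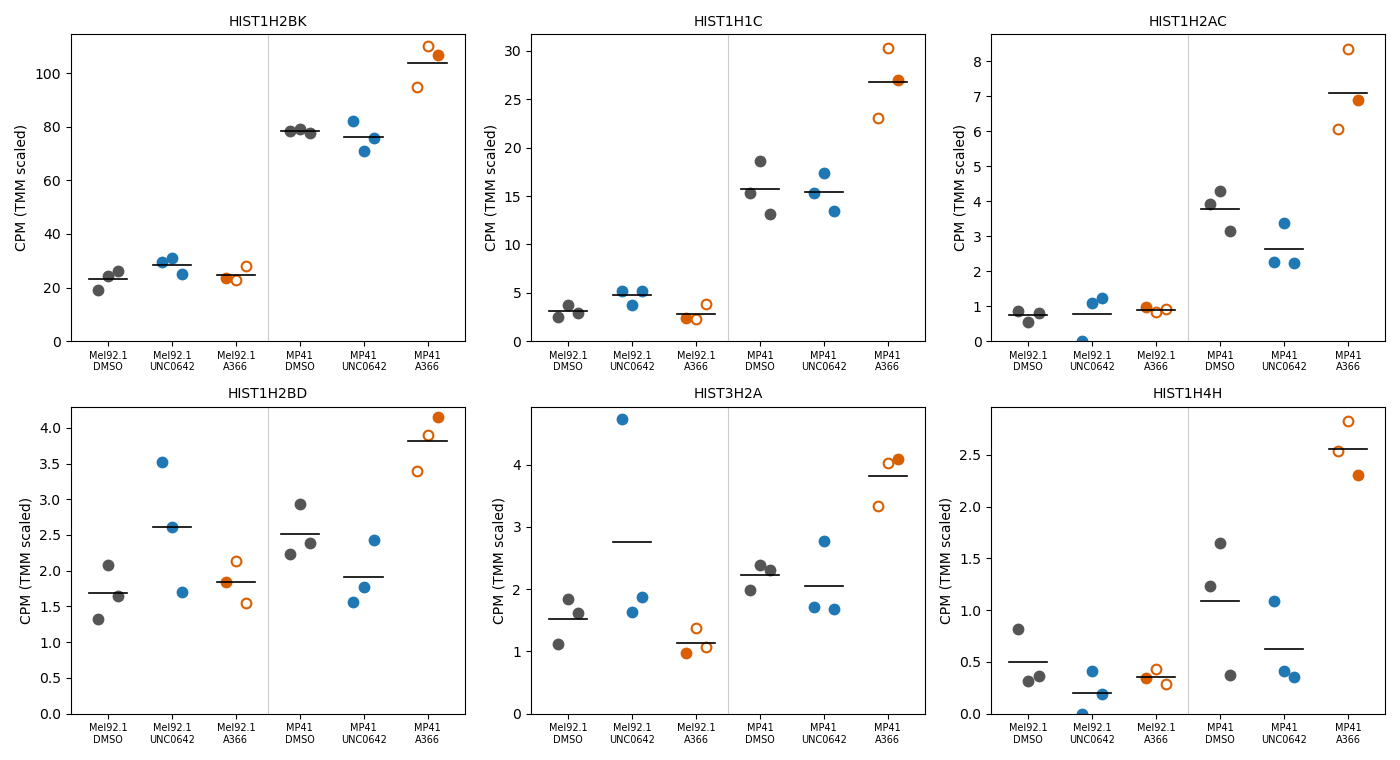
CPM (linear axes from 0) of the 5 genes past the threshold with A366 in MP41 and of HIST1H4H, in each of 18 libraries with a bar at the group mean. Open points are the 4 libraries placed with the other line, and in MP41 every A366 point is above every DMSO point in all 6 genes.

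The count of 5 was 3 without MP41 DMSO replicate 1, 3 without MP41 A366 replicate 1 and 8 without MP41 UNC0642 replicate 1. It was 1, a fall, with the labels as given (32.8% of all genes) and 4 without the 4 libraries, 3 higher and 1 lower. With the GC and length offset 3 were called, HIST1H2AC higher (0.79, adjusted p = 0.00439) and 2 lower. With the share of ribosomal RNA as a covariate, which did not overlap between the DMSO and A366 libraries of MP41, no histone gene and 1.04% of all genes were past the threshold, and the median log2 fold change of the members was 0.26. Some counts under another fit, here and below, are given without the share of all genes called. Such a count does not tell a shift of the histone genes from a shift of all genes.

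UNC0642 at the same dose and time moved no histone gene past the threshold in MP41 (edgeR, 0 of 33 members, where 0.241% of all genes were past the threshold). At an unadjusted p under 0.05 there were 3 (8.8% of all genes), all lower, HIST1H2AC, HIST2H2BE and HIST1H4K. The DESeq2 Wald test gave 0. The HIST1H4K row cannot be read apart from that of HIST1H4J, with which it shares reads. HIST1H4J was higher, at a mean of 2.26 CPM with UNC0642 and 1.42 CPM with DMSO. Summed, HIST1H4J and HIST1H4K had a log2 fold change of −0.16 (SE 0.24, edgeR, adjusted p = 0.923). HIST1H2AC had 2.27, 3.39 and 2.23 CPM with UNC0642, where replicate 2 lies within the DMSO range (log2 fold change −0.53, 95% interval −0.97 to −0.08, adjusted p = 0.471). HIST1H2BK had 82, 71 and 75.8 CPM (log2 fold change −0.04, 95% interval −0.21 to 0.12), so the interval leaves out the rise fitted with A366. HIST1H1C had 15.3, 17.4 and 13.5 CPM (log2 fold change −0.03, 95% interval −0.34 to 0.28).

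The inhibitors were set against each other directly, 1 pair of compounds in either line, at 1 μM and 48 h. In MP41, 13 of 33 histone genes were higher with A366 than with UNC0642 and 2 were lower (45.5%, where 43.1% of all genes were past the threshold, 21.1% upward and 22% downward). The 33 hold near-identical rows that are counted separately, and 29 rows were left to test in MP41 when these were summed. The difference was a log2 fold change of 1.41 (95% interval 0.97 to 1.85, adjusted p = 0.000432) for HIST1H2AC, 0.98 (0.53 to 1.42) for HIST1H2BD, 0.78 (0.47 to 1.08) for HIST1H1C and 0.42 (0.26 to 0.59) for HIST1H2BK, which the GC and length offset turned to −0.26 (adjusted p = 0.0952). HIST1H4H had 1.09, 0.416 and 0.356 CPM with UNC0642, all below A366, and differed by 2.01 (0.93 to 3.09, adjusted p = 0.00671). The 2 lower genes, HIST2H3A and HIST2H3C, have identical values in every library and are 1 signal, at 0.311, 0.208 and 0.475 CPM with UNC0642 and 0.0805, 0.108 and 0.138 CPM with A366 (log2 fold change −1.59, adjusted p = 0.0478). The 15 calls were 6 without MP41 A366 replicate 1, 6 without the library labelled Mel92.1 A366 replicate 3, 7 without MP41 DMSO replicate 3, 8 without any one of MP41 DMSO replicate 1 or UNC0642 replicates 2 and 3, 5 without the 4 libraries, 2 as labelled (31% of all genes) and 0 with the ribosomal covariate. Apart from the count as labelled, these counts are given without the share of all genes called in the same fit. They do not set the histone genes apart from the rest. In Mel92.1 the contrast of A366 with UNC0642 called 0 of 32 (0.165% of all genes) by edgeR, 2 at an unadjusted p under 0.05 (HIST3H2A and HIST1H1C, both lower with A366, where 7.21% of all genes were) and 0 by DESeq2. For HIST1H2BK there the 95% interval of the log2 difference was −0.52 to 0.12.

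In Mel92.1 neither inhibitor moved a histone gene past the threshold against DMSO. The edgeR test called 0 of 32 members with UNC0642 (0.688% of all genes) and 0 of 32 with A366 (0.213%), with 0 at an unadjusted p under 0.05 (9.93% and 4.32% of all genes) and 0 by DESeq2 for either. HIST1H1C had 2.5, 3.78 and 2.94 CPM with DMSO, 5.22, 3.79 and 5.19 CPM with UNC0642 and 2.36, 2.33 and 3.85 CPM with A366. UNC0642 was above DMSO in 3 of 3 libraries, by as little as 3.79 against 3.78 CPM (log2 fold change 0.62, 95% interval −0.02 to 1.25, adjusted p = 0.507). HIST1H2BK had 19.2, 24.3 and 26.2 CPM with DMSO and 23.4, 22.9 and 27.9 CPM with A366, which overlap (log2 fold change 0.09, 95% interval −0.23 to 0.41).

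The difference in response between the lines was tested as an interaction in 1 fit of all 18 libraries. For A366, 0 of 39 members were past the threshold, where 13.8% of all genes were, 2 had an unadjusted p under 0.05 (30.4% of all genes), and DESeq2 called 1. The lowest adjusted p was that of HIST1H1C, for which the Mel92.1 log2 change less the MP41 one was −0.87 (95% interval −1.50 to −0.24, adjusted p = 0.0607). For HIST1H2BK it was −0.31 (−0.65 to 0.02). The count of 0 became 2 without Mel92.1 UNC0642 replicate 1 or Mel92.1 DMSO replicate 1, 1 without the library labelled Mel92.1 A366 replicate 2 or that labelled MP41 A366 replicate 3, and 5 with the labels as given (49.4% of all genes). The counts with 1 library left out are given without the share of all genes called in the same fit. For UNC0642, 0 of 39 members were past the threshold (0.601% of all genes), 3 had an unadjusted p under 0.05 (9.79%) and DESeq2 called 0.

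**Figure D3:**
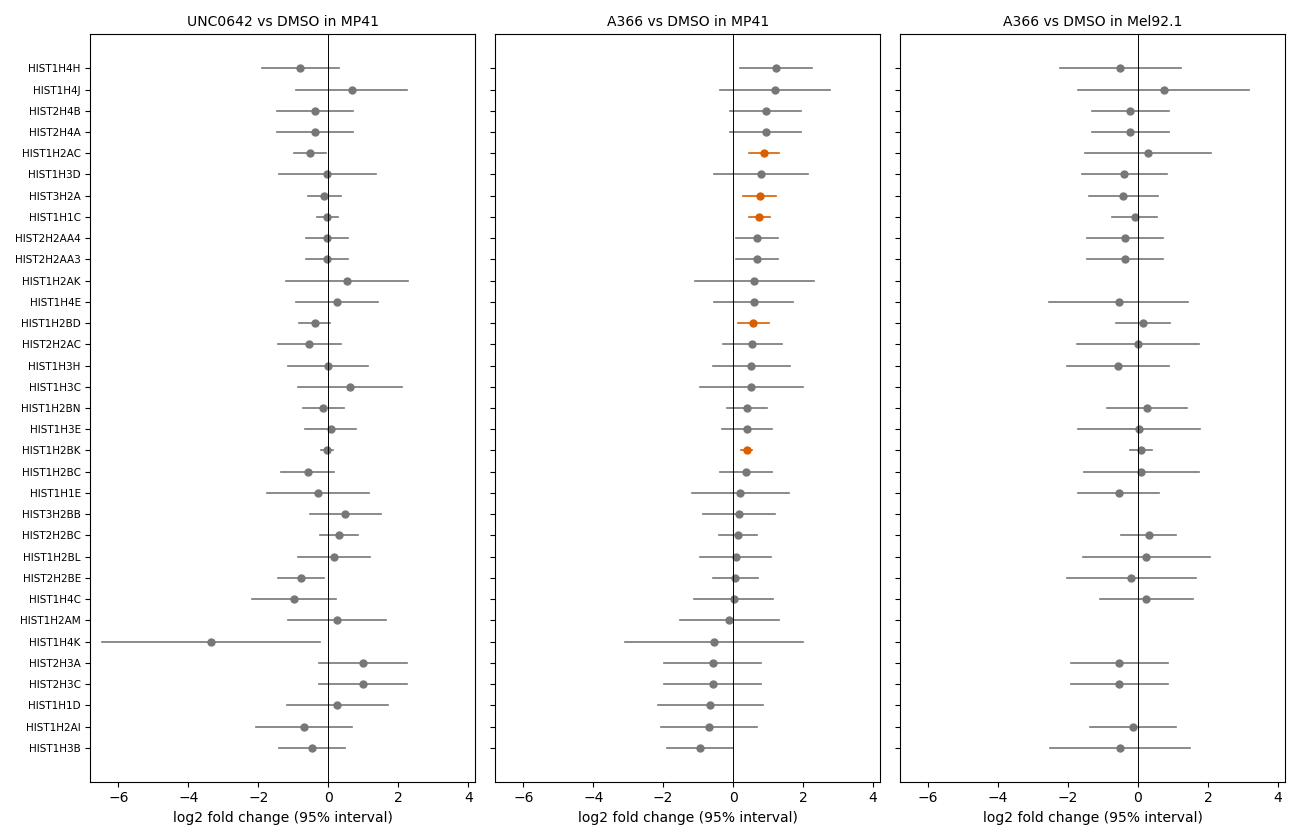
Log2 fold change with its 95% interval (edgeR) for the 33 histone genes tested in MP41, for UNC0642 (left) and A366 (middle) against DMSO in MP41 and for A366 against DMSO in Mel92.1 (right), ordered by the middle panel. Orange marks the 5 genes past the threshold, and genes that were not tested in Mel92.1 have no point.

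The lines themselves differed in histone messages. With DMSO, 7 of 39 members were lower in Mel92.1 than in MP41 and 3 were higher, where 69.4% of all genes were past the threshold, 34.8% lower and 34.5% higher. Among these calls are HIST2H3D, HIST2H2BF, HIST1H1D and HIST1H3C, which entered the set only through libraries of the line where they are higher. The abundant members were among the lower ones. HIST1H2BK had 19.2 to 26.2 CPM in Mel92.1 and 77.8 to 79 CPM in MP41 (log2 fold change −1.75, SE 0.11, adjusted p = 3.24e-10). HIST1H1C differed by −2.36 (SE 0.22, adjusted p = 3.18e-08), and HIST1H2AC, at 0.86, 0.559 and 0.799 CPM in Mel92.1, by −2.35 (SE 0.49, adjusted p = 0.000379). HIST1H2BC had 0.328, 0.319 and 0.386 CPM in Mel92.1 and 0.8, 1.67 and 1.11 CPM in MP41, a log2 fold change of −1.78 (SE 0.53, adjusted p = 0.00655), and HIST1H3E differed by −1.49 (SE 0.56, adjusted p = 0.0243). HIST1H3C was also lower, at a mean of 0.0157 CPM in Mel92.1 and 0.139 CPM in MP41 (adjusted p = 0.0197). It met the count rule only through MP41 libraries, so this call is not independent of its choice as a member.

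The 3 higher members were low in both lines. HIST1H1E, the gene for linker histone H1.4, had 0.532, 0.532 and 0.67 CPM in Mel92.1 and 0.0865, 0.348 and 0.196 CPM in MP41 (log2 fold change 1.45, SE 0.58, adjusted p = 0.0331). HIST2H3D was called on 49 counts in the Mel92.1 DMSO libraries against 3 in those of MP41, a ratio of 17.6 with an exact counting interval of 5.69 to 88.5. HIST2H2BF was called on 36 counts against 2 (ratio 19.4, counting interval 5.01 to 167), and HIST1H1D, lower in Mel92.1, on 1 count against 31. HIST2H3D and HIST2H2BF met the count rule of the set only through Mel92.1 libraries, and HIST1H1D and HIST1H3C only through MP41 libraries. Their calls between the lines are therefore not independent of how the members were chosen. The 10 calls were 20 without Mel92.1 UNC0642 replicate 1, which is in none of the groups compared but enters the estimate of the spread, 7 without the 4 libraries and 3 as labelled (55.3% of all genes). The ribosomal share was 6.5% to 12.5% in Mel92.1 and 3.31% to 5.1% in MP41 with DMSO, and with it as a covariate 9 were called. Of the counts under another fit, only that as labelled stands beside the share of all genes called. The others do not set the histone genes apart from the rest.

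HIST1H4K and HIST1H4J, H4 genes on chromosome 6 (27831216 to 27831527 and 27824108 to 27824480 in GENCODE 29), cannot be read one by one. Every 50-base stretch of the HIST1H4K transcript is also in that of HIST1H4J, and the reads passed from one row to the other. HIST1H4J was the most abundant H4 member, with 2.16, 0 and 2.09 CPM with DMSO in MP41, where HIST1H4K had 0.627, 2.72 and 0.348 CPM. With UNC0642, HIST1H4J had 1.65, 3.16 and 1.97 CPM and HIST1H4K 0.356, 0 and 0. With A366, HIST1H4J had 2.5, 2.41 and 5.1 CPM and HIST1H4K 0.523, 2.09 and 0. In Mel92.1, HIST1H4K was above 0 in 2 of 9 libraries, at 0.541 CPM in DMSO replicate 3 and 1.34 CPM in UNC0642 replicate 1, and HIST1H4J was at 0 in exactly these 2. A library at 0 for one of the genes held the other in all 18.

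Tested by itself, HIST1H4K had a log2 fold change of −0.54 with A366 in MP41 (95% interval −3.08 to 2.01, adjusted p = 0.736), and it was called lower (adjusted p = 0.0402) with the labels as given, where the 3 A366 libraries are at 0. The sum of both genes had 2.43 to 2.79 CPM with DMSO and 3.02, 4.5 and 5.1 CPM with A366 in MP41, without overlap. Its log2 fold change was 0.64 (SE 0.23, adjusted p = 0.0402) and 0.80 against UNC0642 (adjusted p = 0.0164). Against DMSO it was −0.34 (adjusted p = 0.744) with the labels as given, 0.90 (adjusted p = 0.0306) without the 4 libraries and 0.50 (adjusted p = 0.446) with the ribosomal covariate. In Mel92.1 with DMSO the sum was 0.541 to 0.635 CPM, lower than in MP41 by a log2 fold change of −2.14 (SE 0.36, adjusted p = 3.89e-05), and A366 against DMSO there gave 0.23 (SE 0.50). Summing was chosen after the rows had been seen.

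**Figure D4:**
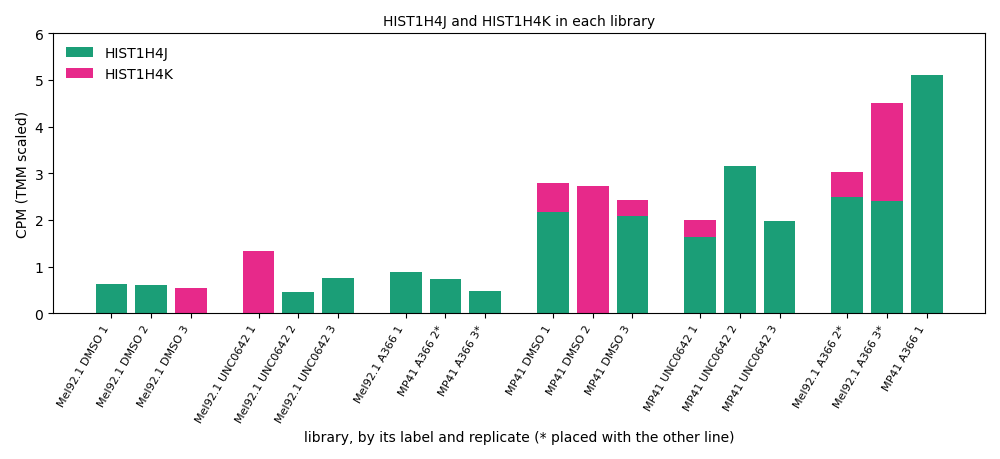
CPM of HIST1H4J (green) and HIST1H4K (pink), stacked, in each of 18 libraries grouped by line and treatment, where an asterisk marks the 4 libraries placed with the other line. The height of the bars is 2.43 to 2.79 CPM in MP41 with DMSO while the split between the genes runs from all HIST1H4K in replicate 2 to mostly HIST1H4J in the others.

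Other rows share reads in the same way. HIST2H2AA3 and HIST2H2AA4, HIST2H3A and HIST2H3C, and HIST2H4A and HIST2H4B agree within 0.01 counts in every library, so each pair is 1 measurement. Summed, HIST2H2AA3 and HIST2H2AA4 rose with A366 in MP41 (log2 fold change 0.69, SE 0.24, adjusted p = 0.0314), where either row by itself had an adjusted p of 0.0573. The adjusted p of their sum was 0.0686 without the 4 libraries and 0.33 with the ribosomal covariate, and with the labels as given the log2 fold change was −0.23 (adjusted p = 0.767). HIST1H2BK has 61.4% of its 50-base stretches in H2BFS, HIST1H3D all of them in an overlapping long transcript, AL031777.3, and HIST1H2AM 86.3% in the overlapping HIST1H3J. HIST1H2BD, HIST2H2BC and HIST2H2BF also overlap other genes, as do the pairs HIST1H2AK and HIST1H2BN, HIST2H3A and HIST2H4B, and HIST2H3C and HIST2H4A. Whether the counting used strand is not given in the sources used here. Of the members' values above 0, 42.9% were not whole numbers, against 17.8% over all genes, which is the mark of reads divided between rows.

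Most genes called in the pathway around the histone genes fell in MP41 with A366. Of 15 tested genes for transcription and processing of histone messages, 9 fell and 2 rose (median log2 fold change −0.27), and 7 fell and 5 rose with the GC and length offset. With the labels as given 5 fell and 2 rose (median −0.06), and without the 4 libraries 8 fell and 2 rose (median −0.26). NPAT had 64.3 to 69.2 CPM with DMSO and 29 to 46.8 CPM with A366, a log2 fold change of −0.87 (SE 0.13, adjusted p = 0.000681), and CASP8AP2, its partner at histone loci, fell by 0.73 on the log2 scale (adjusted p = 0.00042). SLBP, at 84.5 to 91.1 CPM with DMSO and 68.6 to 77.8 CPM with A366, changed by −0.28 (SE 0.071, adjusted p = 0.00808), and by 0.13 (adjusted p = 0.516) with the labels as given. The genes that rose were LSM10, a subunit of the U7 particle that cleaves histone messages (0.50), and HINFP, an H4 promoter factor (0.30). LSM10 was at −0.0037 with the GC and length offset (adjusted p = 0.976), and HINFP at −0.26 with the labels as given (adjusted p = 0.531). Of 10 genes for decay of histone messages, 7 fell and 1 rose, with the exonuclease XRN1 at −1.04 (adjusted p = 0.000564). As labelled 4 fell and 2 rose, and without the 4 libraries 5 fell and none rose.

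Of 35 S phase genes, 19 fell and 2 rose with A366 in MP41 (median −0.23), with CCNE2, a cyclin of S phase entry, at −0.70 and MCM10 and MCM6, of the replication machinery, at −0.73 and −0.45. With the labels as given 9 fell and 5 rose (median −0.04), and without the 4 libraries 16 fell and 1 rose (median −0.21). Of 15 genes of mitosis and proliferation, 10 fell and 1 rose (median −0.31; 8 and 1 as labelled, 10 and 1 without the 4 libraries), and MKI67 changed by −0.94 (SE 0.14, adjusted p = 0.00063). Of 16 histone chaperones, 4 fell, SUPT16H by 0.56 on the log2 scale, and 4 fell under either other placement, while with the GC and length offset 7 fell and 2 rose. The replacement histones, which mostly carry poly(A) and are made outside S phase too, were mostly higher. Of 10 tested, 6 rose and none fell (median 0.28), and 5 rose and none fell with the offset. The linker histone gene H1F0 was at 0.84 (adjusted p = 2.39e-06), H1FX at 0.84 and H2AFJ at 0.73. As labelled 4 of 10 rose, with H1F0 and H2AFJ at −0.71 and −0.72 (adjusted p = 0.795 and 0.767), and without the 4 libraries 6 of 11 rose. These counts stand against 22.5% of all genes upward and 23.5% downward. With the ribosomal covariate, 1 of the 35 S phase genes fell, 1 of the 10 replacement histones rose, and none of the 15 processing, 10 decay or 15 mitosis genes was past the threshold.

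**Figure D5:**
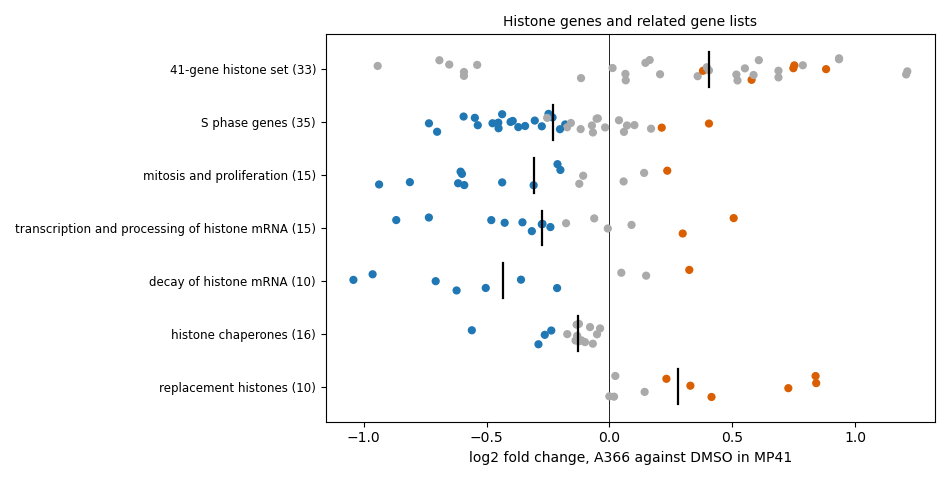
Log2 fold change of A366 against DMSO in MP41 for the 33 tested histone genes and 6 lists of related genes (number tested in brackets), with a bar at the median. Orange points rose and blue points fell past an adjusted p of 0.05. The medians of the histone set (0.40, but −0.03 with the GC and length offset) and the replacement histones (0.28) are above 0, and those of the other 5 lists are below.

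Other RNAs that mostly lack poly(A) did not share 1 direction. Of 24 such genes 9 were tested in MP41 with A366, where 5 fell, among them RNU2-1 (−1.84) and RPPH1 (−1.26), and RN7SL2 rose (1.05, adjusted p = 0.000929). As labelled 2 fell and 1 rose, and without the 4 libraries 1 fell and 1 rose of 11. With the GC and length offset 5 fell and none rose (RN7SL2 0.27, adjusted p = 0.0998), and with the ribosomal covariate none was past the threshold. In the other 3 comparisons with DMSO, none of the 15 processing genes and none of the 10 decay genes was past the threshold by edgeR, at an unadjusted p under 0.05 or by DESeq2. Of the 9 RNAs that mostly lack poly(A), none was past it by edgeR or DESeq2, and at an unadjusted p under 0.05 there were 4 with UNC0642 in MP41, 1 with UNC0642 in Mel92.1 and 0 with A366 in Mel92.1. With UNC0642 in Mel92.1, 3 of 15 genes of mitosis and proliferation rose and none fell, MKI67 by a log2 fold change of 2.47 (adjusted p = 0.000216), but 7 of the 15 were above 0 and their median was −0.003. Of 35 S phase genes there, 1 rose and none fell (median −0.03).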

How the data were processed

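The deposited table holds expected counts per gene from RSEM, per the authors not normalized for library size. The submitters' processing notes name Bowtie2 2.1.0, RSEM 1.2.15 and hg38, whereas the study's methods name alignment to mm10 and FPKM values; the annotation is not given in the sources used here. All library columns were used (0 left out). Counts were rounded and fitted with edgeR 4.0.16 (R 4.3.3) by filterByExpr, TMM, glmQLFit and glmQLFTest over the 9 libraries of a line, or all 18 for contrasts between lines, with p-values adjusted over every gene tested (Benjamini-Hochberg) and a threshold of 0.05. The SE is the log2 fold change divided by the root of the F statistic, and intervals (95%) use the test's degrees of freedom. The common biological coefficient of variation was 0.175 in Mel92.1 and 0.109 in MP41. Members and lists were chosen with earlier results of these data known. Named were HIST1H4K, the most abundant member of each class with DMSO, up to 5 members per direction and comparison by lowest p, up to 3 genes per list, and SLBP, NPAT and MKI67; HIST2H2BE, HIST1H3C, HIST1H4H in other comparisons, the near-identical rows, LSM10 and HINFP were named after their values were seen. Alternatives were RLE factors, no filter, DESeq2 1.42.0, the replicate number as a block, the labels as given, 4 libraries left out, the ribosomal share as covariate and each library left out. Sums of near-identical rows (also under other placements) and a correction for transcript GC content and length (GENCODE 29) were added after seeing the data. The test was also run on simulated data. The changes planted there were larger than those of the histone genes called with A366 against DMSO in MP41. That run therefore does not bear on how well such smaller changes are found. The p-values weigh a difference against the spread between libraries of the same group, estimated over all libraries of a fit. They do not cover other cultures of these lines. Proteins were not used here.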

Additional observations from a re-analysis of the deposited data

How the results depend on the processing

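Of the 9 comparisons, 5 had 0 histone genes past the threshold under every alternative: UNC0642 against DMSO in either line, A366 against DMSO and against UNC0642 in Mel92.1, and the difference in the UNC0642 response. The others moved. With the labels as given, the counts became 1 (A366 against DMSO in MP41), 2 (A366 against UNC0642 in MP41), 3 (the lines with DMSO) and 5 (difference in the A366 response), from 5, 15, 10 and 0. In A366 against DMSO in MP41, DESeq2 gave 8, the ribosomal covariate 0 and the offset for GC content and length 3, of which 1 was higher. In A366 against UNC0642 in MP41, the count was 5 without the 4 libraries, 0 with the ribosomal covariate and 6 with the offset. In the lines with DMSO the offset gave 16, and in the A366 response DESeq2 gave 1. The numbers of the replicates do not pair the samples (1 of 9 same-numbered pairs in Mel92.1 and 0 of 9 in MP41 correlate above 0.1), and the replicate block moved A366 against UNC0642 in MP41 to 8 and the lines with DMSO to 6. Leaving out 1 library gave 3 to 8 (A366 against DMSO in MP41), 6 to 13 (A366 against UNC0642 in MP41), 7 to 20 (lines) and 0 to 2 (A366 response). The share of all genes called in the same fits is not set beside these counts, so they describe the calls and not the histone genes apart from the rest.

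Direction reversed in 4 genes in A366 against DMSO in MP41 with the labels as given, HIST1H1C (−0.52), HIST1H2BK (−0.59), HIST1H2AC (−0.41) and HIST3H2A (−0.038), and in HIST1H2BK (−0.54) and HIST1H1C (−0.49) against UNC0642. The offset turned HIST1H2BK to −0.35 (adjusted p = 0.029) against DMSO and −0.26 against UNC0642, with a length of 381 bases that covers only the coding part of its message. Apart from the placement of the libraries, the cause of these changes was not tested.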
